A study of Sorghum bicolor with 12 samples.

Results

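A group of 179 of the 27989 sorghum transcripts in the deposited tables was examined, whose level was higher in drought-stressed plants of one genotype and about even in the other. In IS20351 the mean of the drought-stressed (DS) plants was at least 4 times that of the well-watered (WW) plants. In IS22330 the DS mean was 0.67 to 1.5 times the WW mean. Levels are RPKM, the reads of a transcript scaled by its length and by the reads of the library. A member also needed a mean RPKM above 0.0011 in each of the 4 groups and of at least 1 in IS20351 DS plants. Of the 22875 transcripts above that floor, 17112 reached an RPKM of 1 in IS20351 DS plants and 713 of these were at least 4 times higher in DS than in WW plants. Among the 713, the IS22330 ratio was above 1.5 for 458 and below 0.67 for 76, and the other 179 form the module described here. The members were thus chosen by the deposited mean RPKM of all 4 groups, and their differences between groups are given as a description. Where tests of these groups are reported below, nothing is read from the counts of members called.

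The module comes from a comparison of IS20351, a genotype the study calls drought sensitive, with IS22330, which it calls drought tolerant, both of the durra race. DS plants were held for 9 days at a fraction of transpirable soil water (FTSW) of 0.2 and WW plants at about 0.7, and RNA was taken at an age of 42 days. The 4 groups were IS20351 DS, IS20351 WW, IS22330 DS and IS22330 WW plants, with 3 biological replicates each, grown 1 plant to a pot. The labels give the tissue as leaf, and the extraction protocol specifies the leaf meristem. Each kind of tolerance is represented by a single genotype, so tolerance and any other difference between these genotypes cannot be told apart.

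Plants that lose water to dry soil close their stomata and make abscisic acid, and they change the waxes of the cuticle, the use of sugars and the synthesis of phenolic compounds. Very-long-chain alkanes of the cuticular wax slow the loss of water from the epidermis, and flavonoids absorb ultraviolet light and can act as antioxidants. The enzymes of these pathways are mostly regulated at the level of transcription, so leaf RNA is a usual place to look for a difference between genotypes.

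The deposited tables hold the mean of the 3 libraries of each group, and the whole reads of each library were solved from them. As no replicate number goes with the solved reads, the letters a, b and c rank the libraries of each group by total, and an equal letter does not pair a DS with a WW plant. They held 26398759 to 28680141 reads on transcripts. A library of IS22330 DS plants stood apart from the others of its label. The comparison used 9 leaf transcripts, 8 named as chlorophyll-binding or light-harvesting proteins and 1 as the small chain of RuBisCO. In IS22330 their RPKM summed to 821, 979 and 7046 in the DS libraries (a to c), against 5563, 3251 and 6556 in the WW libraries. IS22330 DS library c was thus at the level of the WW libraries, and WW library b was the lowest of its group. The leaf transcripts of DS library c thus go against its DS label, and whether the library is mislabelled was not tested, so the even IS22330 ratio that defines the members is given below with and without it. In IS20351 the same sum was 1148, 1215 and 1618 in DS plants against 8135, 7209 and 8363 in WW plants, without overlap. All 9 had reads in all 12 libraries, but the study had picked them for their change in these samples, so they do not check the tissue independently, and markers of dividing cells were not analysed here. In bulk RNA of this kind, fewer cells of a type and less RNA per cell cannot be told apart.

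On the members the same libraries stood apart. Relative to the mean of the 3 IS20351 WW libraries, the median member stood at 1.55, 1.48 and -0.12 on the log2(RPKM + 0.1) scale in the 3 IS22330 DS libraries, a to c, against 0.69, 1.48 and 0.90 in the 3 IS22330 WW libraries. The median over all 19021 tested transcripts lay between -0.16 and 0.26 in these 6 libraries. The near-even group means of IS22330 thus averaged, for the median member, a pair of high DS libraries with a low one, and WW library b was level with the high DS libraries. In IS20351 the median member stood at 2.62, 2.65 and 2.08 in the 3 DS libraries, against -0.39, 0.33 and 0.02 in the 3 WW libraries. WW library b was the highest WW library of IS20351 for 90 of the 179 members, or 50.3%, against 41.7% of the tested transcripts.

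**Figure D1:**
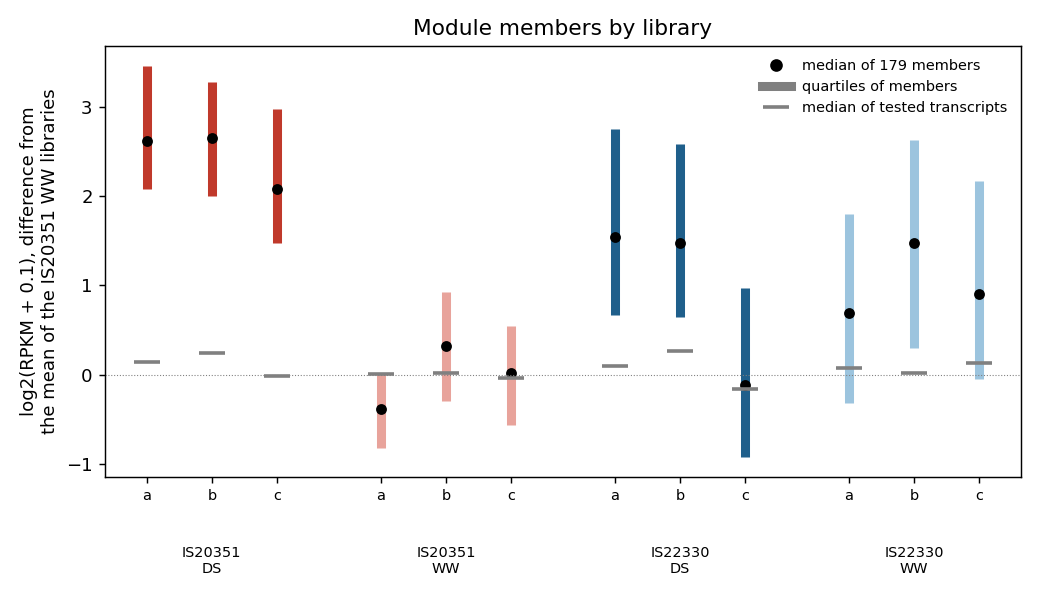
Level of the 179 members in each of the 12 libraries, as the difference in log2(RPKM + 0.1) from the mean of the 3 IS20351 WW libraries. Points are medians over members, thick bars their quartiles and grey dashes the median of the 19021 tested transcripts; IS22330 DS library c has a members' median of -0.12, below the 3 IS22330 WW libraries at 0.69 to 1.48.

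Across the module the mean RPKM of the median member was 3.98 in IS20351 DS plants and 0.605 in IS20351 WW plants, and 1.53 in IS22330 DS plants and 1.44 in IS22330 WW plants. The ratio of DS to WW means in IS20351 was 5.99 for the median member, with quartiles of 4.72 and 9.34 and a highest value of 232. In IS22330 the ratio had a median of 1.04 and quartiles of 0.885 and 1.29. Of the 179 members, 59 had under 30 reads over the 3 IS20351 WW libraries together. The median length of the members was 1163 bases, against 1424 bases for the tested transcripts.

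Just inside the limits of the rule, Sb10g028380.1 had an IS20351 ratio of 4.00, and Sb10g024370.1 was just outside at 3.96. At the lower limit in IS22330 stood Sb01g009320.1 with a ratio of 0.673, next to Sb07g027860.1 at 0.658, which was left out. The upper limit separated Sb02g009720.1 at 1.4998 from Sb06g030020.1 at 1.501. The limit on the level kept Sb09g024555.1 with an RPKM of 1.004 in IS20351 DS plants and left out Sb0010s012040.1 with 0.995.

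The study's annotation table of enriched pathways, made from transcripts that changed in these same samples, names 174 transcripts, of which 9 are members. Of these, 4 are enzymes of lipid and wax metabolism, 3 of phenylpropanoid and flavonoid metabolism and 1 of sugar use, and 1 is an acetyltransferase outside these lists, all named by their likeness to proteins of Arabidopsis or rice. The other 170 members carry no name in the sources used here and are given by identifier.

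Among the enzymes of lipids and waxes was Sb04g026320.1, named octadecanal decarbonylase CER1, a protein that in Arabidopsis takes part in making the alkanes of cuticular wax. Its RPKM was 3.5, 1.04 and 6.14 in IS20351 DS plants against 0.103, 0.893 and 0.0746 in IS20351 WW plants, a ratio of means of 9.97. The lowest DS plant was close to WW library b, the highest WW value. In IS22330 it had 0.234, 0.0519 and 0.0519 in DS plants against 0.261, 0.0252 and 0 in WW plants, where no library exceeded 0.261. Sb04g026320.1 was the annotated member with the lowest level in IS22330 relative to IS20351. The ratio was 0.0316 in DS plants and 0.268 in WW plants. Another transcript named CER1, Sb01g019590.1, was far more abundant and not a member. Its RPKM was 308, 155 and 433 in IS20351 DS plants against 44.2, 62.8 and 29.7 in IS20351 WW plants. In IS22330 that transcript had 430, 344 and 9.42 in DS plants against 5.79, 65.7 and 36.7 in WW plants.

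Sb10g023190.1 encodes a fatty acyl-ACP thioesterase B (FATB), which releases saturated fatty acids from their carrier protein in the plastid. Its RPKM was 198, 112 and 319 in IS20351 DS plants against 36, 68.1 and 39.1 in IS20351 WW plants. The groups did not overlap, and the ratio of means was 4.4. In IS22330 it was 141, 125 and 64.8 in DS plants against 214, 77.5 and 104 in WW plants. FATB was the most abundant annotated member, and in IS22330 its highest value was in WW library a and its lowest in DS library c.

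Sb10g012080.1 (acyl activating enzyme 1, AAE1) belongs to a family of enzymes that attach carboxylic acids to coenzyme A or similar acceptors. It had 3.48, 3.55 and 0.25 in IS20351 DS plants against 0.209, 0.263 and 0.341 in IS20351 WW plants. IS20351 DS library c lay among the WW plants, while the other DS plants were about an order of magnitude higher. In IS22330 the values were 7.48, 6.55 and 0.815 in DS plants against 5.13, 5.96 and 5.32 in WW plants, so that 5 of 6 libraries were above every IS20351 library. IS22330 WW plants had 20.2 times the mean of IS20351 WW plants.

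Sb04g037280.2 encodes a peroxisomal 3-ketoacyl-CoA thiolase (PKT3), which carries out the last step of fatty acid β-oxidation. It was low, at 1.68, 1.19 and 1.5 in IS20351 DS plants against 0.486, 0.293 and 0.161 in IS20351 WW plants, with a ratio of means of 4.65 and no overlap. In IS22330 it had 1.13, 0.673 and 0.403 in DS plants against 0.81, 0.343 and 1.01 in WW plants, values that overlapped throughout.

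Of the phenylpropanoid and flavonoid enzymes, Sb02g009850.1 is named chalcone and stilbene synthase, the family whose chalcone synthases start flavonoid synthesis. Its RPKM was 2.32, 2.49 and 1.41 in IS20351 DS plants against 0.144, 0.617 and 0.749 in IS20351 WW plants. The DS plants of IS20351 were all above the WW plants. In IS22330 it was 0.406, 0.927 and 0.203 in DS plants against 0.902, 0.76 and 0.0281 in WW plants, none above an RPKM of 1.

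Sb02g028590.1, a dihydroflavonol 4-reductase (DFR), acts later in the same pathway, on the way to anthocyanins and proanthocyanidins. It had 1.09, 1.96 and 0.883 in IS20351 DS plants against 0.0804, 0.104 and 0.309 in IS20351 WW plants, again without overlap, from 144 reads in DS and 19 reads in WW plants over the 3 libraries. In IS22330 it had 0.593, 0.161 and 0.107 in DS plants against 0.027, 0.836 and 0.0522 in WW plants. The highest of these IS22330 values, in WW library b, was close to the lowest DS value of IS20351. Another transcript named DFR, Sb10g027560.1, was more abundant and not a member. Its RPKM was 7.58, 4.18 and 16.4 in IS20351 DS plants against 0.127, 3.42 and 0.792 in IS20351 WW plants. In IS22330 that transcript had 10, 3.15 and 0.382 in DS plants against 0.16, 4.48 and 2.38 in WW plants.

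Sb04g027860.1 is named laccase 14 (LAC14), of the copper oxidases that polymerise lignin and other phenolics in cell walls. It had 2.97, 12.7 and 1.41 in IS20351 DS plants against 0.164, 0.935 and 0.964 in IS20351 WW plants. DS library b held 74.3% of the RPKM of the IS20351 DS plants. In IS22330 it had 2.96, 1.54 and 0.0821 in DS plants against 0.969, 3.99 and 0.419 in WW plants, with the lowest value in DS library c and the highest in WW library b.

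Sb09g005480.1 is named 10-deacetylbaccatin III 10-O-acetyltransferase, after an acetyltransferase of taxol synthesis in yew. Its RPKM was 16.4, 14.4 and 11.3 in IS20351 DS plants against 2.78, 3.84 and 3.64 in IS20351 WW plants, a ratio of 4.09. The replicates were even, with means of 14 ± 2.58 in DS and 3.42 ± 0.564 in WW plants (SD, n = 3 each). In IS22330 it was 4.39, 10.2 and 2.92 in DS plants against 8.14, 5.53 and 8.3 in WW plants. Its neighbour by identifier, Sb09g005470.1, was also a member, at 1.41, 1.24 and 1.41 in IS20351 DS plants against 0.0614, 0.477 and 0.059 in IS20351 WW plants.

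Sb09g005840.1 encodes hexokinase 1 (HXK1), which phosphorylates glucose at the start of its use and in Arabidopsis also senses it. It had 4.76, 12.3 and 8.96 in IS20351 DS plants against 0.341, 3.42 and 1.45 in IS20351 WW plants, so that WW library b reached toward the lowest DS plant. The IS22330 values were 17.8, 7.3 and 0.725 in DS plants against 15.1, 1.94 and 1.8 in WW plants, and each treatment held its own high library, DS library a and WW library a. Without DS library c its IS22330 ratio was 1.99 in place of 1.37. The other annotated members then stayed within the limits of the rule, from 0.993 for Sb09g005480.1 to 1.495 for Sb04g026320.1.

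**Figure D2:**
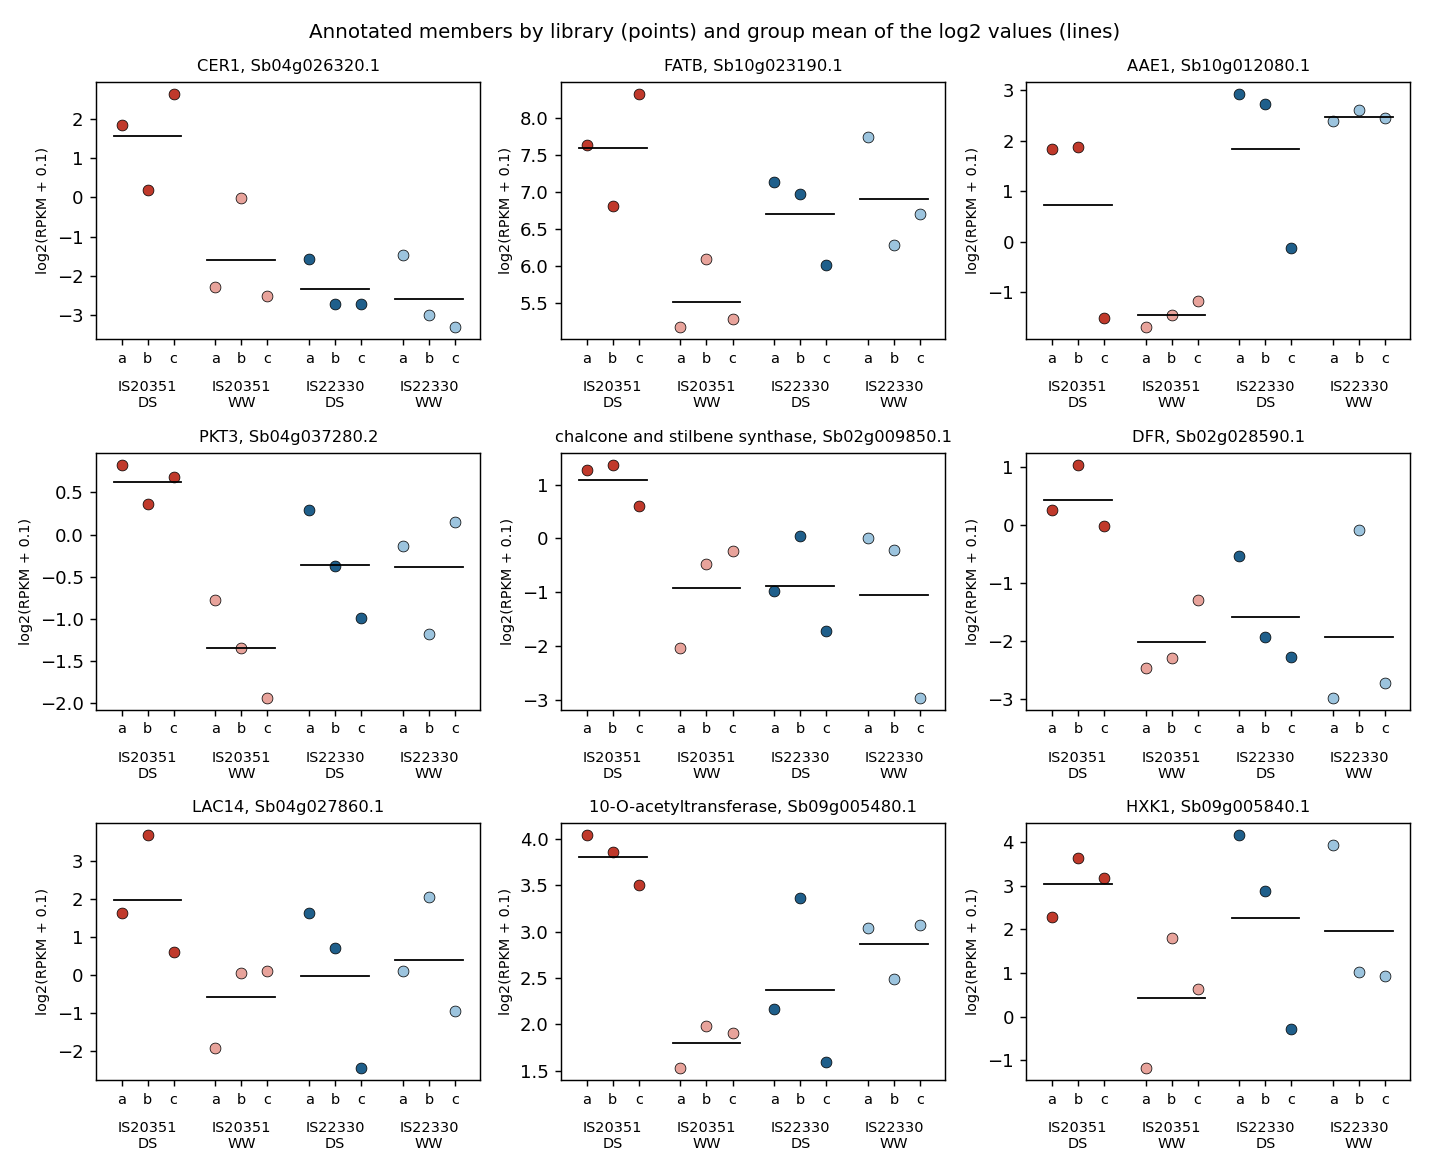
The 9 annotated members in each library, on the log2(RPKM + 0.1) scale. Points are libraries a, b and c of each group and lines the group means of the log2 values. For AAE1, 5 of 6 IS22330 libraries lie above every IS20351 library. For Sb04g026320.1, the less abundant of the transcripts named CER1, no IS22330 library exceeds an RPKM of 0.261.

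The names of the same table were also sorted by words into lists that had been chosen with results of these data known. Since the study picked these names for their change in the same plants, the counts are not independent evidence of a direction. Of 27 tested lipid and wax transcripts, 4 were called higher and 0 lower in IS20351 DS plants by edgeR at an adjusted p under 0.05, and the median log2 ratio was 0.53 in IS20351 and -0.16 in IS22330. Of 18 phenylpropanoid and flavonoid transcripts, 2 were called higher and 2 lower in IS20351, with medians of 1.36 in IS20351 and -0.31 in IS22330. Of 10 sugar and starch transcripts, 1 was called higher and 0 lower, with medians of 2.12 and 0.75. Over all 19021 tested transcripts 1.3% were called higher and 2.42% lower in IS20351, and the medians were 0.03 in IS20351 and 0.01 in IS22330. The redox and photosynthesis lists had negative medians in IS20351. Of 13 redox transcripts 2 were called higher and 0 lower, but the median was -2.62 in IS20351 and -0.35 in IS22330. Of these 2, Sb05g023970.1 is named acyl-CoA oxidase 2 and is also in the lipid and wax list. Of 13 photosynthesis transcripts 1 was called higher and 2 lower, with medians of -2.53 in IS20351 and 0.09 in IS22330. The lists of transporters, kinases and cell wall enzymes had 3, 3 and 1 tested transcripts, of which edgeR called 0 in IS20351, and their IS20351 medians were -4.69, 2.12 and -2.97. All 3 of the transporter list carry the name oxygen binding/transporter, so the word alone put them there. Among them Sb01g042260.2 and Sb01g042260.3 come from the same gene. The words chosen for abscisic acid signalling, dehydrins, heat shock proteins, transcription factors, protein turnover and amino acids met no name in the table, and these groups were not analysed here. All of these list counts were 0 when any 1 IS20351 library, IS22330 WW library a or IS22330 WW library c was left out, and the lipid and wax count was 1 without IS22330 DS library b or WW library b. Without IS22330 DS library c, edgeR called 9 lipid and wax transcripts higher and 6 lower, 2 phenylpropanoid and flavonoid transcripts higher and 7 lower, and 4 sugar and starch transcripts higher and 3 lower, so that the calls of the first and the last of these were no longer one-sided. It then called 4 redox transcripts higher and 7 lower, and 3 photosynthesis transcripts higher and 9 lower. It called 1 kinase higher and 1 lower, and the 3 transcripts of the transporter list and the cell wall enzyme lower. Over all transcripts this fit called 1167 of 18917 higher and 1751 lower in IS20351.

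The largest ratios in IS20351 included those of neighbouring genes. Sb03g006870, Sb03g006880, Sb03g006890 and Sb03g006900, whose identifiers follow one another on chromosome 3, were all members, and identifiers of this kind number genes along a chromosome. Sb03g006890.1 had the largest ratio of the module, 232, from 34, 434 and 2.08 in IS20351 DS plants against 0.107, 1.87 and 0.0513 in IS20351 WW plants. DS library b alone held 92.3% of that sum. In IS22330 Sb03g006890.1 had 1.72, 0.75 and 0 in DS plants against 0.108, 1.4 and 0.156 in WW plants, and no library exceeded its highest IS20351 WW plant.

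Sb03g006900.1 had 93.4, 841 and 13.8 in IS20351 DS plants against 0.435, 7.56 and 0.543 in IS20351 WW plants, a ratio of 111, with DS library b again the highest. IS22330 plants had 31.1, 10.9 and 3.7 in DS plants against 0.569, 45.3 and 8.0 in WW plants. Sb03g006880.1 had 214, 627 and 23 in IS20351 DS plants against 4.47, 13.5 and 3.92 in IS20351 WW plants, and its lowest DS plant was above its highest WW plant. In IS22330 its values of 309, 222 and 26 in DS plants against 30.2, 285 and 112 in WW plants formed 3 low or middling and 3 high libraries, of both treatments.

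Sb03g006870.1 was the second most abundant member in IS20351 DS plants, at 1798, 1288 and 1105 in IS20351 DS plants against 54.8, 522 and 45.3 in IS20351 WW plants. In the other genotype it had 1230.3, 873 and 95.6 in IS22330 DS plants against 117, 1178 and 489.7 in IS22330 WW plants. In both Sb03g006870.1 and Sb03g006880.1, IS22330 DS library c and WW library a were the low ones and WW library b was as high as the DS libraries. Without DS library c the IS22330 ratio was 1.77 for Sb03g006870.1 and 1.86 for Sb03g006880.1, and without both DS library c and WW library b it was 3.47 and 3.75. Reads were counted where their match was unique, and how far these neighbours resemble each other in sequence was not analysed here.

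**Figure D3:**
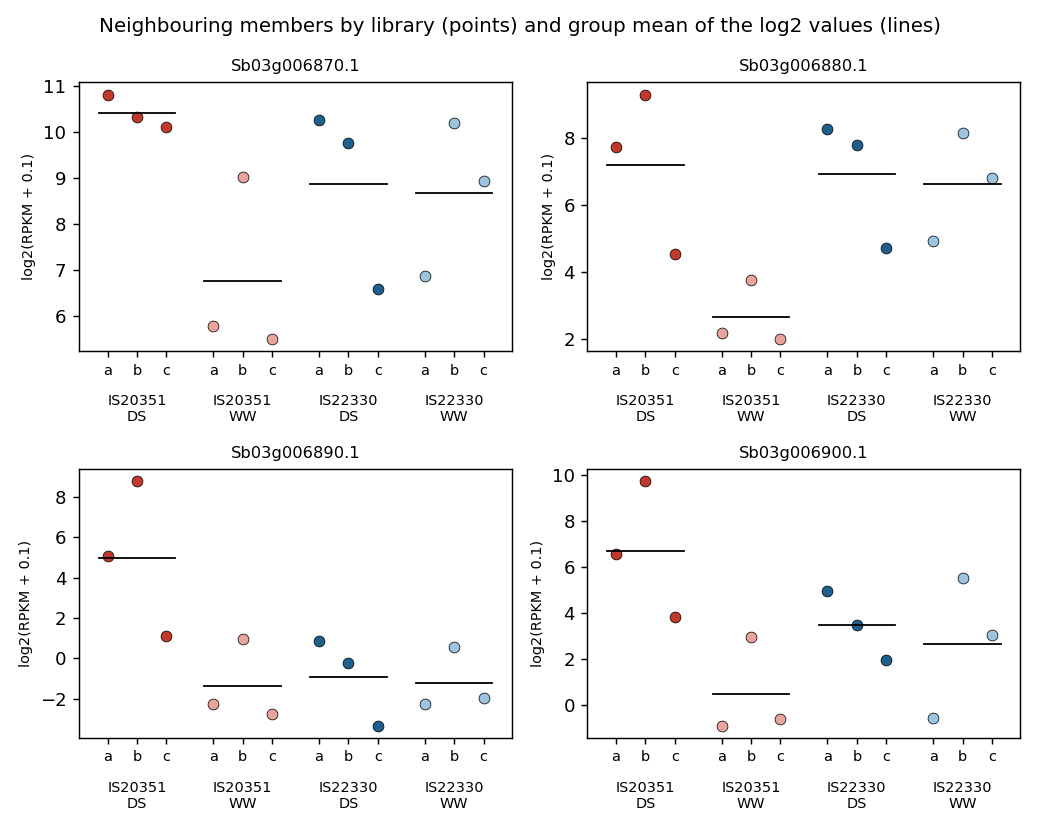
The 4 members with neighbouring identifiers on chromosome 3 in each library, on the log2(RPKM + 0.1) scale. Points are libraries and lines the group means of the log2 values; in IS22330, DS library c is the lowest DS library and WW library b the highest WW library in each panel.

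Another 3 pairs of members were neighbours by identifier, at a distance of at most 2 genes: Sb01g034670 and Sb01g034690, Sb03g032460 and Sb03g032480, and the pair on chromosome 9 that includes the acetyltransferase. The 179 members came from 175 genes. Sb02g034490 gave 3 transcripts, and Sb03g034170 and Sb04g006480 gave 2 each. Transcripts of 1 gene share most of their sequence, so the split of reads between them is uncertain. By identifier, 39 members were on chromosome 1, 24 on chromosome 4, 23 on chromosome 3, 20 each on chromosomes 2 and 9, and 4 on chromosome 5. In the same order, these chromosomes hold 3461, 2237, 2809, 2483, 1530 and 906 of the tested transcripts.

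Other members with large ratios were close to absent in IS20351 WW plants. Sb09g024200.1 had 5.05, 0.936 and 4.51 in IS20351 DS plants against 0, 0.0928 and 0 in IS20351 WW plants, where the WW values rest on 3 reads. The ratio of summed reads was 112 with an exact 95% interval of 38.0 to 547, which covers counting error only. Levels in IS22330 were 5.98, 2.56 and 0 in DS plants against 0.0641, 6.83 and 1.98 in WW plants, with no reads in DS library c.

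Sb08g020350.1 had 9.66, 2.74 and 16.7 in IS20351 DS plants against 0, 0.0461 and 0.296 in IS20351 WW plants, a ratio of 84.6 without overlap. IS22330 had 0.953, 1.07 and 0 in DS plants against 0.191, 1.34 and 0.0231 in WW plants, so that no IS22330 library reached the lowest IS20351 DS plant. Sb01g045250.1 had 2.99, 3.56 and 5.47 in IS20351 DS plants against 0, 0 and 0.229 in IS20351 WW plants. Its IS22330 values of 8.02, 1.67 and 0 in DS plants against 1.02, 7.32 and 0.348 in WW plants ran from 0 to about 8 within the DS plants alone.

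In several members the level of IS22330 was far above that of IS20351 in both treatments. Sb10g001190.1, a transcript of 240 bases, had 25.4, 26.8 and 2.87 in IS20351 DS plants against 0.756, 0 and 0.145 in IS20351 WW plants. The IS22330 values were 219, 205 and 65.6 in DS plants against 84.7, 257 and 230.2 in WW plants, and every one of these was above every IS20351 library. The WW mean of IS22330 was 634 times that of IS20351, from 3860 reads against 6.

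Sb01g019680.1 had 1.1, 0.487 and 1.84 in IS20351 DS plants against 0, 0.0933 and 0 in IS20351 WW plants, and 8.88, 8.77 and 14 in IS22330 DS plants against 14.8, 11.4 and 8.44 in IS22330 WW plants. It was 1 of the few members with even levels in all IS22330 plants, and the lowest of these was over 4 times the highest IS20351 plant. Sb07g021850.1 had 29.997, 14.5 and 5.37 in IS20351 DS plants against 0, 1.43 and 0.106 in IS20351 WW plants. In IS22330 its values were 163, 204 and 0.369 in DS plants against 3.64, 143 and 135 in WW plants, that is 4 libraries over 100 and, in DS library c and WW library a, levels within the range of IS20351.

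Sb07g028370.1 combined a large ratio with a high level, at 220.0, 368 and 99 in IS20351 DS plants against 3.32, 13.8 and 0.496 in IS20351 WW plants, a ratio of 39.1. IS22330 plants had 574, 389 and 14.6 in DS plants against 13, 509 and 178 in WW plants. Its lowest IS20351 DS plant was well above the highest WW plant, whereas the IS22330 treatments overlapped over nearly their whole range. Without DS library c its IS22330 ratio was 2.06 in place of 1.4.

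The member with the highest level was Sb09g001020.1, of 225 bases, at 3273, 1812 and 276 in IS20351 DS plants against 224, 556 and 220.2 in IS20351 WW plants. One DS plant was within the range of the WW plants, and the ratio was 5.36. In the other genotype it had 660.3, 902 and 30.2 in IS22330 DS plants against 648, 462 and 443 in IS22330 WW plants. DS library c was far below all of the WW plants, which lay within 1.5-fold of each other.

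Sb02g025920.1 had 459, 615 and 212 in IS20351 DS plants against 76.3, 80.8 and 163 in IS20351 WW plants, with no overlap but a ratio of only 4.01. Its IS22330 values were 216, 242 and 47.4 in DS plants against 193, 94 and 158 in WW plants. Sb08g022970.1 had 283, 280.0 and 154 in IS20351 DS plants against 33.2, 71.5 and 42.9 in IS20351 WW plants. Levels in IS22330 were 87.1, 99 and 19.1 in DS plants against 53.5, 60.7 and 63.9 in WW plants, and in both of these members DS libraries a and b were above all WW libraries and DS library c was below all of them.

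Sb10g012970.1 had 397, 407 and 328 in IS20351 DS plants against 52.5, 199 and 30.3 in IS20351 WW plants. In IS22330 its values of 488, 207 and 29.8 in DS plants against 32.2, 415 and 76.2 in WW plants spread over more than a 10-fold range in each treatment. Sb03g039880.1 had 323, 268 and 212 in IS20351 DS plants against 14.6, 113 and 18.5 in IS20351 WW plants. In IS22330 Sb03g039880.1 was at 646, 582 and 34.9 in DS plants against 62.3, 697 and 305 in WW plants, higher than every IS20351 plant in DS library a, DS library b and WW library b. Without both DS library c and WW library b the IS22330 ratio of these members was 6.4 for Sb10g012970.1 and 3.34 for Sb03g039880.1.

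How IS22330 stood relative to IS20351 differed among members. In WW plants the IS22330 mean was above the IS20351 DS mean for 24 of the 179, between the IS20351 DS and WW means for 122, and below the IS20351 WW mean for 33. In DS plants these counts were 25, 126 and 28. The ratio of IS22330 to IS20351 had a median of 2.27 in WW plants and of 0.377 in DS plants. The WW median over the tested transcripts was 1.06, on RPKM + 0.1. The middle order, a level in IS22330 between those of IS20351 DS and WW plants, was the most common one under either treatment; the rule did not ask for it, but a ratio of at least 4 in IS20351 leaves a wide middle.

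**Figure D4:**
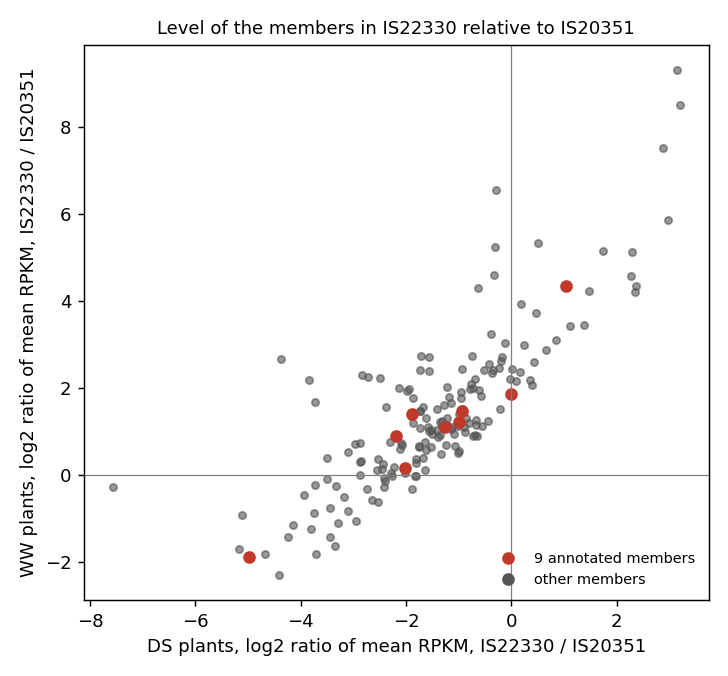
Level of each member in IS22330 relative to IS20351, as log2 ratios of mean RPKM, in DS plants on the horizontal axis and in WW plants on the vertical axis. Each point is 1 of the 179 members and the 9 annotated ones are red; the medians are ratios of 0.377 in DS and 2.27 in WW plants.

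The 3 IS22330 WW libraries were all above the 3 IS20351 WW libraries for 46 of 179 members, where 13% of the tested transcripts showed this order, and all below for 4, against 9.66% of the tested transcripts. The 3 IS22330 DS libraries were all below the 3 IS20351 DS libraries for 68 members and above for 7, against 10.6% and 9.05% of the tested transcripts. Under these comparisons the rule had used the means, so nothing is read from the counts. For 10 members, or 5.59%, every IS22330 WW plant was above every IS20351 DS plant, against 17.6% of the tested transcripts. Besides AAE1, Sb10g001190.1 and Sb01g019680.1 these included Sb08g014620.1, chosen for naming after its values were seen, with 25, 24.5 and 14.2 in IS22330 DS plants against 16.1, 23.8 and 16.4 in IS22330 WW plants, compared with 4.98, 4.73 and 3.37 in IS20351 DS plants against 0.695, 0.322 and 0.604 in IS20351 WW plants.

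The opposite case was Sb01g016100.1, also named after its values were seen. It had 40.03, 29.98 and 21 in IS20351 DS plants against 5.62, 9.95 and 4.67 in IS20351 WW plants. IS22330 had 2.63, 2.28 and 2.08 in DS plants against 2.25, 1.3 and 2.21 in WW plants, below every IS20351 library and nearly even over the 6 plants.

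Even levels across the IS22330 plants were rare among the members. The 6 IS22330 libraries were within a 2-fold range for 8 of 179 members, or 4.47%, against 27.2% of the tested transcripts. They were over 10-fold apart on RPKM + 0.1 for 62 members, or 34.6%, against 9.81% of the tested transcripts. The highest IS22330 DS library was 5.01 times the lowest for the median member, against 1.94 times for the median tested transcript, and the same value in IS22330 WW plants was 3.61, against 1.65. Members also varied more than the tested transcripts in IS20351, by 2.86 times in DS plants and 3.07 times in WW plants, against 1.75 and 1.58. Lower levels carry more counting error, and how much of this spread comes from it was not tested.

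The 8 even members, named after their values were seen, were Sb04g028690.1, Sb06g016860.1, Sb10g027600.1, Sb02g034490.2, Sb01g015190.1, Sb08g014620.1, Sb01g019680.1 and Sb04g017805.1. Sb04g028690.1 had 30.1, 26.3 and 33.9 in IS20351 DS plants against 7.82, 3.91 and 9.03 in IS20351 WW plants. The IS22330 values were 15.4, 16.4 and 16.4 in DS plants against 14.9, 11 and 18.7 in WW plants, between the IS20351 treatments in all 6 plants. Sb06g016860.1 likewise had 7.62, 13.3 and 11.9 in IS20351 DS plants against 1.49, 2.25 and 1.69 in IS20351 WW plants. IS22330 plants had 4.68, 2.47 and 3.95 in DS plants against 3.43, 3.03 and 4.49 in WW plants, again between the treatments of IS20351. Sb04g017805.1 had 12.3, 11.9 and 13.1 in IS22330 DS plants against 13.3, 10.8 and 11.7 in IS22330 WW plants, all above the highest IS20351 plant at 5.43.

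The rule did not use the order of the libraries within the IS22330 groups, but its limits on the ratio of means bear on it. They bear more directly on the orders between DS and WW libraries. The 458 transcripts compared here were taken for an IS22330 ratio above 1.5. The shares are therefore a description, and nothing is read from them. IS22330 DS library c was the lowest of the DS libraries for 140 of 179 members, or 78.2%, against 55.9% of the tested transcripts and 95% of the 458 transcripts that were also higher in IS22330 DS plants. It was below all 3 WW libraries for 91 members, or 50.8%, against 40.8% of the tested transcripts. WW library b was the highest WW library for 78 members, or 43.6%, against 31.3% of the tested transcripts and 75.1% of the 458. WW library a was the lowest for 83, or 46.4%, against 33.7% and 70.3%. For 26 members, or 14.5%, DS libraries a and b were both above all 3 WW libraries, against 26% of the tested transcripts and 82.5% of the 458. No member had all 3 IS22330 DS libraries above or all below the WW libraries, as 4.93% and 9.13% of the tested transcripts had, and the limits on the ratio leave little room for it.

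Leaving out IS22330 DS library c changed the IS22330 ratio most. Without it the median ratio of the members was 1.39 in place of 1.04, 75 members (41.9%) were above 1.5 and 6 below 0.67. Over the tested transcripts 21.1% were then above 1.5 and 24.1% below 0.67, where 14.2% and 19.3% were so with all libraries. Without WW library b, 60 members (33.5%) were above 1.5 and 14 below 0.67, with a median of 1.19, against 17.7% and 23.1% of the tested transcripts. Without both libraries, a choice made after the data were seen, the median was 1.55, 92 members were above 1.5, 21 of these at 4 or more, and 15 were below 0.67, that is 51.4%, 11.7% and 8.38% of the members, against 23.6%, 3.76% and 26.5% of the tested transcripts. Of the other libraries, leaving out DS library a put 40 members (22.3%) below 0.67 and 7 above 1.5. The tested transcripts then had 17.4% below and 11.5% above. Without DS library b these were 36 (20.1%) and 8, against 22.4% and 12.0%. Without WW library a 19 members were below and 22 above, and without WW library c 20 and 20. With all libraries every member lies between these limits by the rule, so leaving out a library can only move members past them. DS library c was most often the lowest DS library of the members, and WW library b most often the highest WW library. A rise of the median ratio without them was thus built into the choice of libraries, and nothing is read from its direction.

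**Figure D5:**
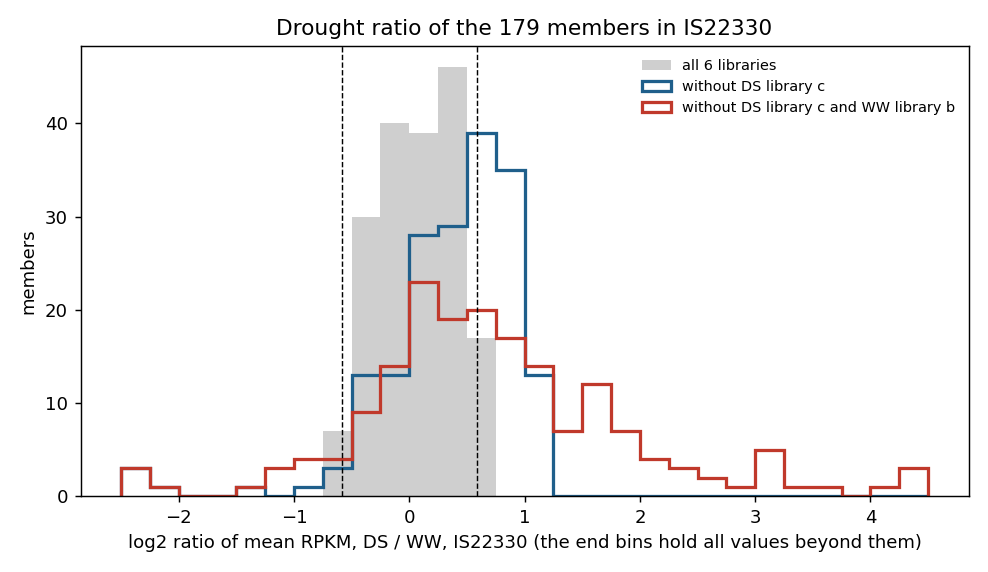
Ratio of DS to WW mean RPKM of the 179 members in IS22330, on a log2 scale, with all 6 libraries (grey), without DS library c (blue) and without DS library c and WW library b (red). Dashed lines mark the limits of the rule at 0.67 and 1.5; the medians are 1.04, 1.39 and 1.55.

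Applied anew without DS library c, the rule took 119 transcripts, 98 of them members, and without both libraries 84, of which 72 were members. With the medians of the 3 libraries in place of their means it took 175 transcripts, of which 69 were members. Only 13 members met the rule whichever of the 12 libraries was left out. They included AAE1 and Sb10g001190.1, Sb08g014620.1, Sb06g016860.1, Sb01g015190.1 and Sb09g005470.1 from those described above.

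In IS20351 the members did not all rest on 3 DS plants. The highest DS library held at least 75% of the IS20351 DS sum for 22 members, and for 85 the ratio was under 4 without it. For 14 members it was then under 2. Of the members described, Sb10g028380.1 was of this kind, with 3.3, 22.8 and 0.42 in IS20351 DS plants against 1.92, 1.34 and 3.35 in IS20351 WW plants, where DS library b stood alone. Sb01g009320.1 had 21.8, 2.12 and 2.51 in IS20351 DS plants against 0, 0.23 and 1.91 in IS20351 WW plants, with DS library a alone at a high level. Sb02g009720.1 instead had 7.98, 4.48 and 7.13 in IS20351 DS plants against 0.15, 1.77 and 0.024 in IS20351 WW plants, all DS plants above all WW plants. In IS22330 Sb02g009720.1 had 9.77, 5.19 and 0.426 in DS plants against 0.101, 8.53 and 1.63 in WW plants, with DS library c and WW library a low and WW library b high, as in the run on chromosome 3. Sb09g024555.1, with 20 reads in IS20351 DS and 5 in IS20351 WW plants, was too low for a comparison of its libraries.

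The 3 DS libraries of IS20351 were all above the 3 WW libraries for 144 of 179 members, where 21.5% of the tested transcripts showed this. An edgeR fit of all 12 libraries tested 19021 transcripts, those that reached an RPKM of 1 in 3 libraries or more, 154 of the 179 members among them. At an adjusted p under 0.05 it called 32 members higher and 0 lower in IS20351 DS plants, against 1.3% of the tested transcripts called higher and 2.42% lower. FATB and the acetyltransferase Sb09g005480.1 were the annotated members among the 32. These are the contrasts on which the members were chosen, and nothing is read from the counts. The count of members was 0 when any 1 of the 6 IS20351 libraries was left out, 0 without IS22330 WW library a or c, and 86 without IS22330 DS library c. Over all tested transcripts the fits with 0 members also called 0. The fit without IS22330 DS library c called 1167 of 18917 transcripts higher and 1751 lower.

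In IS22330 the fit called 0 members and 0% of the tested transcripts in either direction, with 2093 transcripts at an unadjusted p under 0.05. limma also called 0, and DESeq2 called 197 transcripts, 0 of them members. Without IS22330 DS library c edgeR called 795 transcripts in IS22330, again 0 of them members. For the difference between the drought responses, IS22330 minus IS20351, edgeR called 0 members and 0% of the tested transcripts, with 1127 at an unadjusted p under 0.05. limma called 0 as well, and DESeq2 called 47 transcripts. Of these 7 were members, all with the lower response in IS22330, the direction set by the rule. The rule also holds the IS22330 ratio near even, so nothing is read from these counts of members. In WW plants, 16 members were called higher and 1, Sb01g016100.1, lower in IS22330 than in IS20351, against 2.84% and 1.89% of the tested transcripts. AAE1 was the annotated member among the 16.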

How the data were processed

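Reads were made from leaf RNA and, according to the methods of the study, aligned by the authors to the sorghum genome of Ensembl Plants (release 20), using SOAPaligner/SOAP2 and allowing 5 mismatches. The expected counts deposited by the authors average the unique reads per transcript in the 3 libraries of each group, and the deposited RPKM values are the mean of the RPKM of the same libraries. Where a library had no reads, 0.001 stood in for it in the mean. The deposited transcript lengths were used as given.

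Both means hold enough digits to solve for the whole reads of each library, which gave a single answer in all 4 groups for 27984 of 27989 transcripts. The other 5, none of them a member, were left out of the tests. Library totals were 26398759 to 28680141 reads, and intervals cover counting error only. The replicates are biological, per the labels.

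The main test was that of edgeR 4.0.16 in R 4.3.3 (quasi-likelihood, TMM, group means of all 12 libraries, prior count 0.125), with limma 3.58.1 on log2(RPKM + 0.1) and DESeq2 1.42.0 as alternatives, and p-values were adjusted by Benjamini-Hochberg over the 19021 transcripts that reached an RPKM of 1 in 3 or more libraries. The common biological coefficient of variation was 0.464. The solving of reads and the edgeR test were also run on simulated data. The data simulated for edgeR held no library at odds with its group, so they do not bear on the effect of IS22330 DS library c. At the thresholds of the study, a log2 ratio of 2 or more in size and an adjusted p no higher than 0.001, edgeR called 0 transcripts in both drought comparisons, so the looser level of 0.05 is used.

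Members, gene lists and the rule for named transcripts were chosen with earlier results of these data known. Named were all annotated members, the 10 with the largest IS20351 ratio, the 10 with the highest level in IS20351 DS plants, the 2 highest annotated members of each list, and those at the limits of the rule; others are said to be chosen after their values were seen. Names come from the annotation table of the study, since no identifier matched the RefSeq gene table. Promoter and protein sequences were not analysed here.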

Additional observations from a re-analysis of the deposited data

How the results depend on the processing

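No paired analysis was possible because the libraries solved from the deposited means carry no replicate number. At an adjusted p under 0.05 edgeR called 709 transcripts in IS20351, 32 of them members. Without an RPKM filter it called 444 transcripts, with an RPKM minimum of 0.1 it called 364 and 19 members, with only the groups compared 1948 and 64 members, and with DESeq2 3103 and 103 members. Leaving out 1 library gave 0 to 2918 transcripts and 0 to 86 members. In IS22330 DESeq2 called 197 transcripts and edgeR 0, and 0 to 795 when 1 library was left out. The difference of the drought responses gave 47 transcripts and 7 members with DESeq2 and 0 of each with edgeR. In WW plants the genotypes differed in 900 transcripts and 17 members by edgeR, in 1510 and 32 by DESeq2, and in 579 to 1141 transcripts and 9 to 20 members when 1 library was left out, lowest without IS20351 WW library a.

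The rule took 179 transcripts, 65 with a pseudocount of 1, 59 with a ratio of at least 8 in IS20351, 103 with narrower limits in IS22330, 280 with an RPKM of at least 0.1 and 78 with an RPKM of at least 5. Leaving out 1 library gave 119 to 266, and leaving out IS22330 DS library c and WW library b together, chosen after the data were seen, gave 84. The log2 ratios of the named members were recomputed with medians, pseudocounts, TMM scaling or without 1 library. A ratio counted as moved at a change of at least the square root of the summed DS and WW variances of log2(RPKM + 0.1). In IS20351 22 of 290 moved, and in IS22330 2 of 290. Among the members the IS22330 replicates were the more spread, so fewer moves there do not mean steadier ratios. Of the ratios called in IS20351 0 changed sign. In IS22330 edgeR called 0, so no sign change could be counted there. Low counts limit some members, of which 59 had under 30 reads over the IS20351 WW libraries and 33 had under 30 in either IS22330 group. The causes of these changes were not tested.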
